A study of Macaca fascicularis with 44 samples.

Results

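Brain endothelial cells (brain ECs) of the hippocampus were set against brain ECs of the cortex, both at P0D7, the stage at which cells isolated from cynomolgus monkey brain had grown for 7 days in endothelial medium. The comparison used all 7 hippocampus and all 8 cortex libraries of this stage, 15 of the 44 libraries of the study. The other libraries were P0D7 cells of striatum (7), brainstem (6) and cerebellum (2), re-plated cortex cells (P1D7, 6) and cortex microvessels as isolated (P0D0, 8). No group carried a drug treatment or a genetic change, and age and sex were not given per library; the study's methods describe male and female animals that had served in earlier preclinical work. Microvessels were released with collagenase and dispase, separated on an albumin gradient, plated on collagen IV and fibronectin and selected with puromycin, so both groups are cultured primary cells and not vessels in place. Label codes joined 1 hippocampus and 1 cortex library in replicates 1 to 7, and replicate 8 was cortex alone. The labels do not say what a code stands for. A p-value here measures the spread of these libraries within codes, or between libraries where the code was left out of the fit.

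Endothelial cells of the brain line its capillaries and, joined by tight junctions and equipped with efflux pumps and selective transporters, form the blood-brain barrier. They act with pericytes and astrocytes, and in culture they are known to lose part of the barrier programme that those neighbours maintain. The hippocampus is the seat of memory formation, and barrier leakage there has been described in ageing and in neurodegenerative disease. A comparison between structures asks whether ECs carry a mark of the region they came from once they have grown under the same conditions. The labels number the cortex libraries in a run of their own, apart from the run of the other structures. Structure and number run thus cannot be told apart where cortex is compared with another structure below.

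The files name genes by Ensembl identifiers of the cynomolgus gene model and do not pair them with symbols. A table of gene names was searched for the 28623 identifiers and held 0 of them. Endothelial markers, transporters, junction genes and markers of pericytes, astrocytes or other cells were therefore not analysed here, and the labelled cell type was not checked against them. The results below describe genes by their values, and 4 identifiers chosen by a rule are printed, with no role given. In such bulk libraries, fewer cells of a type and less RNA per cell cannot be told apart.

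Libraries held 8633089 to 24023026 counts in hippocampus (median 19153531) and 15513781 to 23138726 in cortex. The lowest was hippocampus replicate 3, and it was the only hippocampus library below all cortex libraries in depth. Genes at or above 1 FPKM (fragments counted, scaled to gene length and library total) numbered 11125 ± 88 per hippocampus library and 11136 ± 84 per cortex library (SD, n = 7 and 8). The total count was higher in 5 of 7 pairs and the number of genes in 3 of 7 (two-sided exact permutation test over the 7 pairs, adjusted p = 0.984 and 0.854 over 4 measures). The 10 most abundant genes took 12.3% ± 1.1 of the counts in hippocampus, against 13.1% ± 1.5 in cortex, and the share was lower in 6 of 7 pairs (adjusted p = 0.125). The summed FPKM, a measure added after its values were seen, was 653460 ± 17182 in hippocampus and 690131 ± 23460 in cortex and was lower in all 7 pairs (raw p = 0.0156, the smallest that 7 pairs can give, adjusted p = 0.0625 by the exact permutation test).

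Hippocampus and cortex ECs expressed largely the same genes. At or above 1 FPKM in at least 50% of a group's libraries were 11060 genes in hippocampus and 11208 in cortex, and 10908 were in both. A further 152 genes met this in hippocampus alone, of which 53 were called different by the test below, and 300 in cortex alone, of which 35 were called, where 3.32% of all genes tested were called. These sets were formed from the same hippocampus and cortex levels as the test, so nothing is read from their shares. No gene reached 1 FPKM in every hippocampus library while staying under 0.1 FPKM in every cortex library, and 1 gene had the reverse. This gene lies outside the rule for printed identifiers.

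Genes that reached 1 FPKM in 3 or more of the 15 libraries were tested, 11778 in all, and 391 of them (3.32%) differed between hippocampus and cortex by at least 1.5-fold at an adjusted p of at most 0.05, in edgeR's quasi-likelihood test with the code as a block. In hippocampus, 234 genes (1.99%) rose and 157 (1.33%) fell. Most changes were small. A change of 2-fold or more was found for 99 higher and 63 lower genes, of 3-fold or more for 21 higher and 25 lower, and of 4-fold or more for 10 higher and 14 lower. The median log2 fold change was 0.91 over the higher genes (quartiles 0.71 and 1.27) and -0.90 over the lower ones (quartiles -1.27 and -0.71), against -0.01 over all genes tested (quartiles -0.14 and 0.12). The median standard error was 0.18 in the higher and 0.19 in the lower genes. Without the code in the fit, 32 genes were called, 17 higher and 15 lower, and all 32 were also called with it in the same direction.

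**Figure D1:**
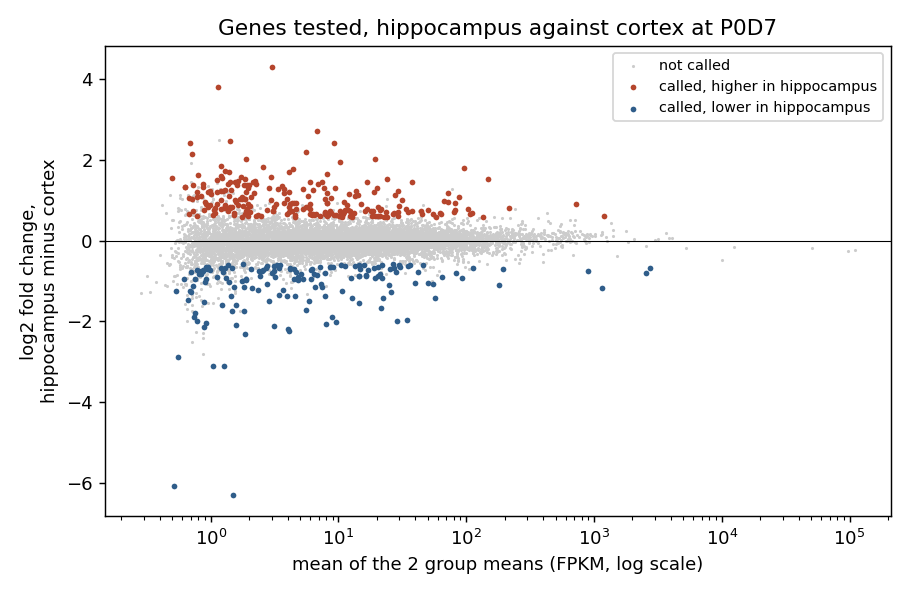
Log2 fold change, hippocampus minus cortex at P0D7, of 11778 genes (points) against the mean of the 2 group means in FPKM on a log axis. The 234 genes called higher and the 157 called lower lie over the whole range of levels, with more of them among genes under 5 FPKM.

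The genes that changed were mostly of low abundance. Genes called higher averaged a median of 5.76 FPKM in hippocampus and 3.12 FPKM in cortex, and genes called lower 2.77 FPKM in hippocampus and 5.92 FPKM in cortex, while the median over all genes tested was 12.0 FPKM in hippocampus and 12.2 FPKM in cortex. Under 1 FPKM, 24 genes rose (4.56% of those tested there) and 28 fell (5.32%), the only one of 5 ranges of level in which more genes fell than rose. Genes of this range were tested only because 3 or more libraries reached 1 FPKM. That filter favours genes that are high in 1 group, so nothing is read from the shares of this range. Between 1 and 5 FPKM, 3.73% of 2657 genes rose and 2.11% fell. Between 20 and 100 FPKM, 1.10% of 3350 genes rose and 0.836% fell. At 100 FPKM or more, 8 of 596 genes rose (1.34%) and 7 fell (1.17%), so strongly expressed genes were also among those that differed. Genes called higher were longer, with a median length implied by counts and FPKM of 2996 bases, against 2369 bases for genes called lower and 2458 bases for all. Genes of 4202 bases or more were called higher in 2.91% of 2305 cases, against 1.69% of 2305 genes up to 1326 bases, and with an offset for length in the fit, added after these values were seen, 233 genes were called higher and 154 lower.

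The code carried more of the variation than the structure. The share of structure includes any difference between the number runs of the labels. Over the 7 pairs, the median gene had 74.2% of its sum of squares between codes, 5.38% between hippocampus and cortex and 15.7% in the remainder, where the degrees of freedom alone are 46.2%, 7.69% and 46.2%. Among the called genes, which were chosen on this contrast, the medians were 54.5%, 35.3% and 9.68%. A coefficient of variation fitted jointly to all genes, the square root of edgeR's common dispersion, was 26.4% among hippocampus and 31.5% among cortex libraries. Over both groups within codes it was 13.8%. Deviations from the group means correlated at 0.649 on average between hippocampus and cortex libraries of the same code (0.429 to 0.821, 7 pairs), and at -0.092 between libraries of different codes (-0.470 to 0.463, 49 pairs). These correlations are across genes, which are not independent replicates, and are given as a description.

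Of the 234 higher genes, 197 were higher in all 7 pairs and 37 in 6. Of the 157 lower genes, 109 were lower in all 7 pairs, 45 in 6 and 3 in 5. Over all genes tested, 905 (7.68%) were higher in every pair and 701 (5.95%) lower in every pair. The calls used these same pairs, so the counts describe the genes and do not test them. The levels of the groups still overlapped for most called genes. All hippocampus libraries lay above all cortex libraries in FPKM for 10 of the 234 higher genes, against 0.263% of all genes tested, and below them for 16 of the 157 lower genes, against 0.204%.

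The size of the difference varied between replicates. The median difference of the higher genes was between 0.69 (replicate 1) and 1.31 (replicate 7) on the log2 CPM scale (counts scaled to the library total), and that of the lower genes between -1.28 (replicate 2) and -0.61 (replicate 3). The median absolute difference over all genes was 0.15 to 0.25. Replicate 5 held the most genes that went against the call, 20 of 157 lower and 8 of 234 higher genes. Leaving out replicate 5 gave 280 higher and 241 lower calls. Leaving out replicates 1, 2 or 7 moved the number of lower calls to 101, 100 and 99.

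**Figure D2:**
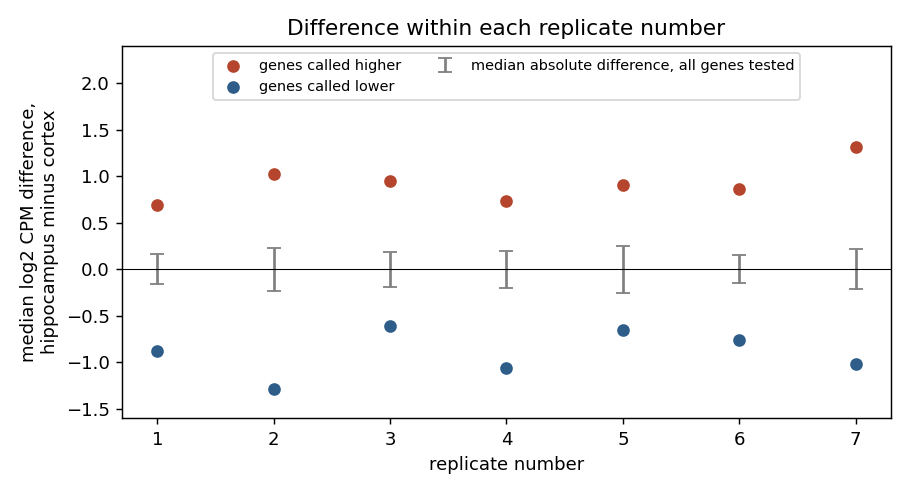
Median log2 CPM difference, hippocampus minus cortex, for each of the 7 replicate numbers, over the 234 genes called higher (upper points) and the 157 called lower (lower points). Grey bars span plus and minus the median absolute difference of all genes tested, 0.15 to 0.25, and both sets lie outside them in every replicate, as the choice of the genes by this contrast favours.

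Of the 174 called genes whose mean was 5 FPKM or more in either group and whose direction was the same in all 7 pairs, the 2 with the largest positive and the 2 with the largest negative log2 fold change are given by identifier. ENSMFAG00000024344 had 5.57, 3.66, 13.5, 13.5, 2.66, 1.27 and 0.629 FPKM in hippocampus replicates 1 to 7, and 0 to 0.625 FPKM over the cortex libraries with a median of 0.225 FPKM. All 7 hippocampus libraries were above all 8 cortex libraries, the nearest being 0.629 FPKM in hippocampus and 0.625 FPKM in cortex. Its mean was 5.84 ± 5.50 FPKM in hippocampus and 0.242 ± 0.217 FPKM in cortex (SD, n = 7 and 8), and the log2 fold change was 4.29 (SE 0.41, adjusted p = 0.00148 by edgeR). The gene was seen in 9 to 243 counts per hippocampus library and in 0 to 9 counts per cortex library.

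ENSMFAG00000001645 had 3.98, 3.65, 47.6, 19.4, 1.67, 5.09 and 2.93 FPKM in hippocampus replicates 1 to 7, and 0.274 to 3.27 FPKM over the cortex libraries with a median of 0.889 FPKM. Each hippocampus library was above the cortex library of its own code, by 2.17-fold in replicate 6 and by 58.6-fold in replicate 3, but the groups overlapped. Its mean was 12.0 ± 16.8 FPKM in hippocampus and 1.42 ± 1.08 FPKM in cortex (SD, n = 7 and 8), with a log2 fold change of 2.71 (SE 0.48, adjusted p = 0.00987 by edgeR). The level in replicate 3 carried much of this mean, and the hippocampus median was 3.98 FPKM. Without the code, the adjusted p of this gene was 0.0869 by edgeR.

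ENSMFAG00000005898 had 0.395, 1.30, 2.63, 1.66, 1.32, 2.21 and 1.25 FPKM in hippocampus replicates 1 to 7, and 3.56 to 11.6 FPKM over the cortex libraries with a median of 5.49 FPKM. All hippocampus libraries were below all cortex libraries. Its mean was 1.54 ± 0.72 FPKM in hippocampus and 6.55 ± 2.72 FPKM in cortex (SD, n = 7 and 8), and the gene fell by 2.19 on the log2 scale (SE 0.38, adjusted p = 0.00911 by edgeR). The gene is short, 132 bases as implied by its values, and had 1 to 7 counts per hippocampus library and 10 to 33 per cortex library.

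ENSMFAG00000015721 had 0, 0.694, 4.67, 1.42, 3.28, 1.01 and 0.443 FPKM in hippocampus replicates 1 to 7, and 2.44 to 12.0 FPKM over the cortex libraries with a median of 5.89 FPKM. Each hippocampus library was below the cortex library of its own code, and the groups overlapped through hippocampus replicates 3 and 5. Its mean was 1.64 ± 1.70 FPKM in hippocampus and 6.50 ± 2.93 FPKM in cortex (SD, n = 7 and 8), and it fell by 2.24 on the log2 scale (SE 0.53, adjusted p = 0.0271 by edgeR). This gene, 124 bases long, rested on 0 to 7 counts per hippocampus library and 7 to 32 per cortex library. Its adjusted p passed 0.05 without the code (0.095) and on leaving out replicate 1, 2, 4, 6 or 7 (0.0501 to 0.0733), and its log2 fold change was then between -2.36 and -1.90.

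**Figure D3:**
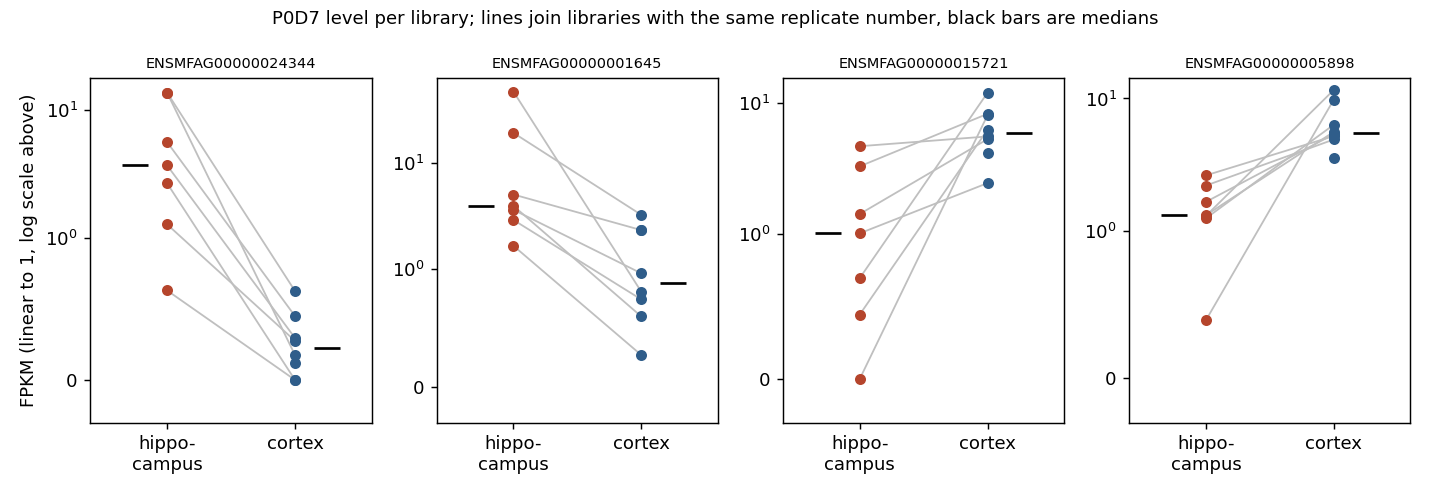
FPKM of 4 genes in 7 hippocampus (left) and 8 cortex (right) libraries at P0D7, on axes linear to 1 and logarithmic above. Points are libraries, grey lines join libraries with the same replicate number and black bars are medians. Every line falls to the right in the first 2 genes and rises in the other two.

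The same genes were followed into the libraries the comparison did not use. ENSMFAG00000024344 averaged 8.59 ± 14.0 FPKM in brainstem (n = 6) and 2.28 ± 2.97 FPKM in striatum (n = 7) and was listed at 0 in both cerebellum libraries. Single libraries carried these means, which were 3.00 FPKM without brainstem replicate 4 (36.5 FPKM) and 1.20 FPKM without striatum replicate 1 (8.75 FPKM). In cortex it stayed low at the other stages, at 0.149 ± 0.150 FPKM in P1D7 (n = 6) and 0.061 ± 0.128 FPKM in P0D0 (n = 8). ENSMFAG00000001645 averaged 22.7 ± 35.1 FPKM in brainstem and 5.73 ± 3.17 FPKM in striatum, and the brainstem mean was 8.68 FPKM without replicate 4 (93.1 FPKM). In cortex its mean was 3.87 ± 2.77 FPKM in P0D0 (n = 8), above the 1.42 FPKM of P0D7 cortex and near the hippocampus median of 3.98 FPKM, and 0.037 ± 0.024 FPKM in P1D7, below every P0D7 cortex library. ENSMFAG00000005898 and ENSMFAG00000015721 averaged 0.713 ± 0.678 and 1.87 ± 1.46 FPKM in brainstem, and 1.42 ± 0.98 and 1.83 ± 1.27 FPKM in striatum. In P0D0 cortex their means were 50.2 ± 33.0 and 171 ± 91 FPKM, so both stood far higher in the isolated microvessels than in any cultured group.

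For none of the 4 genes did the difference between hippocampus and the mean of brainstem and striatum pass the test, which does not show that the levels were equal. In a fit of the 28 hippocampus, brainstem, striatum and cortex libraries, the log2 difference between hippocampus and the other two was 0.58 for ENSMFAG00000024344 (SE 0.47, adjusted p = 0.361 by edgeR), -0.15 for ENSMFAG00000001645 (SE 0.43, adjusted p = 0.819), 0.49 for ENSMFAG00000005898 (SE 0.43, adjusted p = 0.410) and -0.35 for ENSMFAG00000015721 (SE 0.50, adjusted p = 0.617). Brainstem and striatum differed from cortex by 3.89 (SE 0.67), 2.90 (SE 0.49), -2.68 (SE 0.32) and -1.89 (SE 0.37) in the same order of genes, with adjusted p between 7.20e-05 and 0.00214 by edgeR. In all 4 genes, brainstem and striatum thus lay on the same side of cortex as hippocampus did. The genes were chosen on the same P0D7 cortex libraries, so this describes them and is not separate support. Hippocampus, brainstem and striatum also share a run of label numbers apart from that of cortex, and the part of this run was not tested.

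Over all called genes, in the same fit, the 234 higher genes had a median log2 difference of 0.92 between hippocampus and cortex, 0.61 between hippocampus and brainstem with striatum, and 0.32 between brainstem with striatum and cortex. The 157 lower genes had medians of -0.92, -0.56 and -0.44. The comparisons share libraries, so the medians are given side by side and no overlap between them was tested. Hippocampus against the mean of brainstem and striatum gave 502 calls (4.26%), 249 higher (2.11%) and 253 lower (2.15%). This count depended on which hippocampus libraries were in the fit. It was 16 without hippocampus replicate 2, 19 without replicate 6, 29 without replicate 3, 53 without replicate 4 and 180 without replicate 5. Without replicate 1 it was 567, without replicate 7 it was 606, and without the code it was 3.

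**Figure D4:**
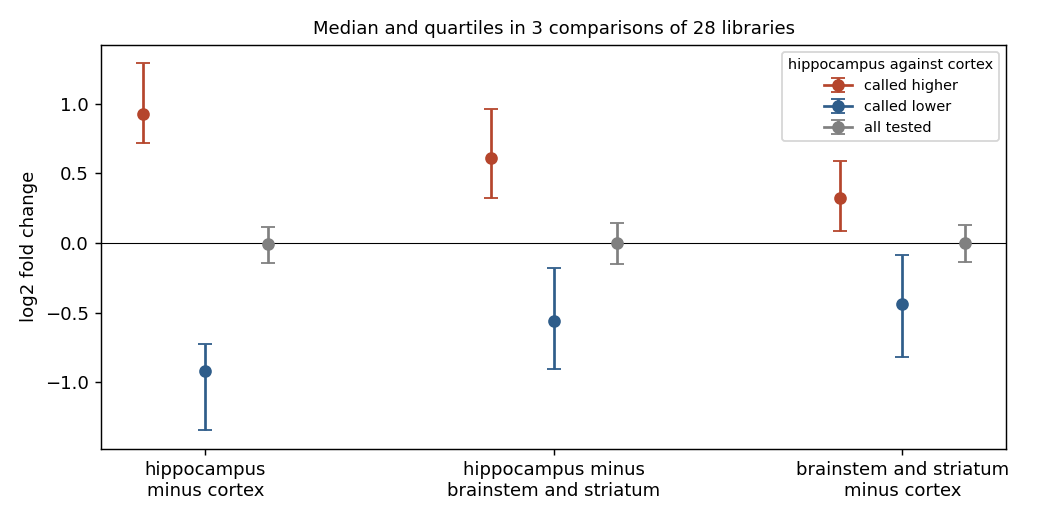
Median and quartiles of the log2 fold change in 3 comparisons within 1 fit of 28 libraries, for the genes called higher (234) and lower (157) in hippocampus against cortex and for all 11778 genes tested. The medians of the higher genes are 0.92, 0.61 and 0.32 from left to right, and those of the lower genes -0.92, -0.56 and -0.44.

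The called genes were also set against the change of cortex ECs in culture, by sorting genes on the mean level in P0D0 cortex over that in P0D7 cortex. Of 5752 genes with a ratio of 0.25 to 1, 1.11% rose and 0.591% fell in hippocampus, and of 4397 genes with a ratio of 1 to 4, 1.75% rose and 1.34% fell. The share called was larger on both sides. It was 7.70% of the 844 genes with a ratio under 0.25, that is higher after culture, and 9.77% of the 696 genes with a ratio of 4 to 20. Of the 89 genes with a ratio of 20 or more, 11.2% rose and 15.7% fell. P0D7 cortex values enter both the ratio and the calls, so the shares are given with no test.

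A set of genes abundant in the isolated microvessels showed a low but regular level in cortex libraries. The labels number the cortex libraries in a run of their own (P0D0 1 to 8, P0D7 9 to 16 and P1D7 17 to 22), and the other structures in a second run that uses the same numbers again, with hippocampus at 5 to 11. The labels do not say what these numbers stand for, and number run and structure cannot be told apart. This holds for the calls between hippocampus and cortex too, and the part of number run in them was not tested. By limits set after the values were seen, 96 genes had at most 3 counts over all brainstem and striatum libraries and at least 1000 counts over the P0D0 libraries. They had 92 counts in sum in the 7 hippocampus libraries and 1080 in the 8 cortex P0D7 libraries, against 434682 in P0D0. This came to 0.175 to 1.17 CPM in hippocampus, 5.69 to 9.46 CPM in P0D7 cortex and 5.22 to 6.81 CPM in P1D7 cortex, so hippocampus and cortex did not overlap. The genes were chosen as low in structures of the hippocampus number run and high in P0D0 cortex. This choice favours such a gap, so it describes the 96 genes and is no test.

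In P0D7 cortex the summed counts of these genes were a broadly similar share of those in P0D0 over 3 ranges of P0D0 counts. The share was 0.307% for the 40 genes with 1000 to 2000 P0D0 counts, 0.226% for the 36 with 2000 to 5000 and 0.245% for the 20 with 5000 or more. In P1D7 cortex it was 0.204%, 0.148% and 0.137% over the same genes, and in hippocampus 0.0526%, 0.0376% and 0.0072%. Single genes varied more than these sums. In P0D7 cortex, a gene with 2272 P0D0 counts had 1 count and a gene with 1301 had 12. Among all 28623 identifiers, 10 had 0 counts in every hippocampus library and at least 1 in every P0D7 cortex library, and 0 had the reverse. Of the 10, 9 had at least 1000 counts in P0D0, and the share of all identifiers with as many is not given here. Only 1 of the 10 passed the filter for the test, and it was called. A sum of 0 counts over a group allows up to 3 by counting error.

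**Figure D5:**
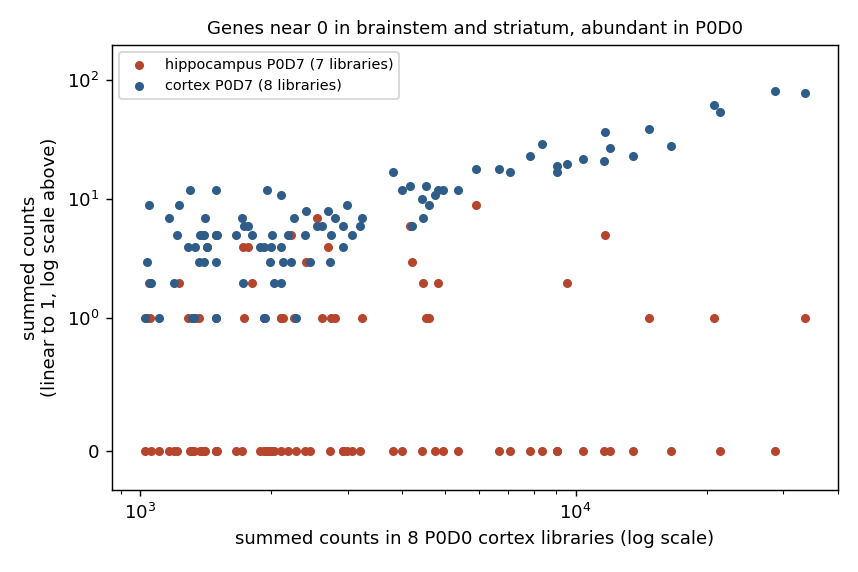
Summed counts in 7 hippocampus and 8 cortex P0D7 libraries against summed counts in 8 P0D0 cortex libraries (log axis), for 96 genes with at most 3 counts over brainstem and striatum. The y axis is linear to 1 and logarithmic above, and the cortex points climb with P0D0 abundance while most hippocampus points lie at 0 or 1.

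Calls were also counted with some genes left out, a step added after the values were seen. In 42 of the tested genes, 0.248% of the P0D0 counts came to at least 5% of the P0D7 cortex counts. They held 3 of the 234 higher and 8 of the 157 lower calls, so that 26.2% of these genes were called, against 3.32% of all genes tested. The limit is again a ratio of P0D0 to P0D7 cortex counts, as in the sorting above. P0D7 cortex counts enter both the choice of genes and the calls, so the shares are given with no test. Without the 42 genes, 231 genes were called higher and 149 lower, and neither ENSMFAG00000005898 nor ENSMFAG00000015721 was among those left out. The part of this low level in the calls was not tested.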

How the data were processed

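RNA of cultured brain ECs was sequenced as paired reads after ribosomal depletion with a directional kit. The authors removed ribosomal, low-quality and short reads in ArrayStudio, aligned the rest to the Washington University cynomolgus genome with the Omicsoft aligner and assigned read pairs to Ensembl genes. The deposited estimated counts are not normalized, and 1.455% of the values are not whole, so they were rounded. The deposited FPKM values are scaled by the authors to gene length and library total, and were used for filters and levels.

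In R 4.3.3, counts went into edgeR 4.0.16 (TMM scaling, trended dispersion, quasi-likelihood F test, Benjamini-Hochberg adjustment over all genes), with the code as a block. The pairing comes from codes in the labels; the same-code correlation was over 0.1 in every pair. A call needed a fold change of at least 1.5 and an adjusted p of at most 0.05. Log2 CPM used a prior count of 2. DESeq2 1.42.0 and limma 3.58.1 (log2 of FPKM plus 1) were alternatives. Genes were named by identifier, as the 2 largest changes in each direction among called genes with at least 5 FPKM and 1 direction in 7 pairs. The gene lists and markers planned could not be applied without symbols. Members and lists were chosen with earlier results of these data known. Libraries within a group all differed beyond sampling noise (lowest mean chi-square per gene 23.5 over 49 pairs). Fits were tested on simulated data. Read pairs carry no molecular identifiers, so limits on counts cover counting error only.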

Additional observations from a re-analysis of the deposited data

Results flagged for a closer look

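In hippocampus replicate 3, ENSMFAG00000001645 stood at 47.6 FPKM, far above the other hippocampus libraries, of which the next was at 19.4 FPKM. The gap was larger than Dixon's 95% limit for 7 values, taken on FPKM and not on a log scale. In this way 16 groups of values were examined. Chance would mark about 1 in 20 of them if values were normally distributed, which was not checked. The same library had the lowest total count, 8633089. Without replicate 3 in both groups the gene had a log2 fold change of 2.13 (adjusted p = 0.00358 by edgeR), against 2.71 with it. The part of depth in this value was not tested.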

How the results depend on the processing

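The direction of all 4 named genes held under all 20 alternatives run for each. Their choice by 1 direction in 7 pairs favours this, so it is no test. ENSMFAG00000015721 did not pass the call in 6 of the 20 alternatives, and ENSMFAG00000001645 did not in 1. With the code as a block, 3359 of 11778 genes had an unadjusted p under 0.05 between hippocampus and cortex by edgeR. The number of calls between hippocampus and cortex was 391 (234 higher, 157 lower). It was 32 (17 and 15) with no replicate block, with 1487 genes at an unadjusted p under 0.05, and 146 (77 and 69) by DESeq2 without the code. By limma on log2(FPKM + 1) it was 245 (155 and 90), with no fold threshold 1245 (685 and 560) and with a fold of at least 2 it was 162 (99 and 63). Leaving out each replicate in turn gave 266 to 521 calls, 167 to 280 higher and 99 to 241 lower. Fitting 28 libraries together gave 359 calls and moved the share of higher calls to 54.0%, against 59.8%. DESeq2 with the code gave 489, no filter 503, and other normalizations, filters and dispersions 371 to 394.

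Between hippocampus and the mean of brainstem and striatum, 502 genes were called (249 higher, 253 lower). In that fit, 4487 genes had an unadjusted p under 0.05 by edgeR. With no replicate block edgeR called 3, of which 3 were higher and 0 lower, with 1483 genes at an unadjusted p under 0.05. DESeq2 with the code called 656 (344 higher, 312 lower). Leaving out each hippocampus replicate in turn gave 16 to 606 calls, 9 to 324 higher and 5 to 289 lower, so this count is not a firm one. The causes of these shifts were not tested.

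Genes under 1 FPKM and short genes rest on few counts, and hippocampus replicate 3 had under 50% of the median depth of its group. Both lower genes printed had at most 7 counts in any hippocampus library.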
